A study of Mus musculus with 16 samples.

Results

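A set of 9 genes used as markers of the supporting and gland cells of the olfactory mucosa was followed across the 16 arrays of a cell sorting experiment in mice. They were read by gene symbol in the platform annotation: Sox2, Sox9, Cbr2, Ermn, Krt8, Krt18, Aqp3, Aqp4 and Aqp5. These members and the other gene lists below were chosen with earlier results of these data known. All 9 had a single probe set, among 22206 probe sets tested and 19505 genes with a probe set. Clariom S arrays were hybridised with RNA of dissociated and sorted olfactory mucosa from C57BL/6 mice of the S100a5-tauGFP line, whose green fluorescent protein (GFP), fused to tau, marks cells that express S100a5, a gene of active olfactory neurons. The mice were of both sexes and 7 to 12 weeks old. Each spent 40 h alone in a clean air chamber at 3.1 L/min, and from 26 h on received a 10 s pulse every 20 min of undecanal, a fatty aldehyde odorant, or of filtered air as vehicle. For each agent, 4 pools of 3 mice gave 2 sort fractions per pool, where arrays of the same replicate number are taken to share mice. By title the groups were vehicle GFP-, vehicle GFP+, undecanal GFP- and undecanal GFP+, with 4 arrays each.

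The sign of GFP in the titles was opposite to that in the sample characteristics for 16 of 16 samples. S100a5 itself was lower in the array titled GFP+ in each of the 8 pools, with differences of -0.91 on the log2 scale in vehicle pools and -0.97 in undecanal pools, which goes with the characteristics and against the titles. The groups still follow the titles, and the fractions are named as titled throughout without taking the titles as right. Every difference between fractions turns sign if the characteristics hold the right labels. Omp, the marker of mature olfactory neurons, lay between log2 18.715 and 18.95 in all 16 arrays. Values are log2 probe set signals, and a background level of 4.80 was taken from 358 probe sets for vomeronasal and bitter taste receptors, as the 95th percentile of their means in the groups. Levels were compared only within a gene, or as the summed signal of a list between groups, since probe sets differ in brightness. The number of arrays limits the precision.

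Sustentacular cells are the supporting cells that span the olfactory epithelium. They wrap the neurons, break down inhaled chemicals with oxidising and conjugating enzymes, and take part in the salt and water balance of the mucus. Bowman glands lie below the epithelium and secrete mucus through ducts that cross it. Markers of these cells are partly shared with others: keratins 8 and 18 occur in many simple epithelia, SOX2 in basal progenitors, SOX9 in several non-neuronal cell types, and aquaporins in glands, basal cells and glia.

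The promoter windows of 4 members are shown because these genes span the range of behaviour described below. Krt8 and Krt18 encode partner subunits of the same keratin filament, lie next to each other with 0 protein-coding genes between them, and differed strongly between the fractions. Sox2 differed less, and Cbr2 did not pass the test. Each window runs from 250 bases before to 50 bases after the gene start in RefSeq (GRCm38.p6), written 5′ to 3′ on the strand of the gene. Capitals mark matches on either strand to TATAAA (the TATA box), to CCAAT (the CCAAT box), or to the SOX core as ACAAAG or ACAATG.
Krt8, chr15:102004293-102004592, minus strand: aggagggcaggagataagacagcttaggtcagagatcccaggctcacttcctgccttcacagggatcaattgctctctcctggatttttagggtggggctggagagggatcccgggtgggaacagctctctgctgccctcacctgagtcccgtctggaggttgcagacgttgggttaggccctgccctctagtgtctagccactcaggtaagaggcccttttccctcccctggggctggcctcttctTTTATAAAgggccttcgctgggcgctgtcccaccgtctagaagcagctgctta
Krt18, chr15:102027966-102028265, plus strand: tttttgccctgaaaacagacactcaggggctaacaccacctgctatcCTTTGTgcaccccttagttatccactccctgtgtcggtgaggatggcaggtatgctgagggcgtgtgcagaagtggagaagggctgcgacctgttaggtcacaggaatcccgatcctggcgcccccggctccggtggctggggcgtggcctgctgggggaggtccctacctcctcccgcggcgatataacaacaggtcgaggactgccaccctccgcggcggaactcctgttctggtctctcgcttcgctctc
Sox2, chr3:34649745-34650044, plus strand: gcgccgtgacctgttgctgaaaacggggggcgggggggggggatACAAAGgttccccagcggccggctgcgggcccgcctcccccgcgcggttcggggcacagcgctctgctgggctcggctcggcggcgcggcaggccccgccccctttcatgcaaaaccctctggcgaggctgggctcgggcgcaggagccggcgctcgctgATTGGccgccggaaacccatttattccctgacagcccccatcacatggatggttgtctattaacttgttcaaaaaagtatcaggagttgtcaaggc
Cbr2, chr11:120731972-120732271, minus strand: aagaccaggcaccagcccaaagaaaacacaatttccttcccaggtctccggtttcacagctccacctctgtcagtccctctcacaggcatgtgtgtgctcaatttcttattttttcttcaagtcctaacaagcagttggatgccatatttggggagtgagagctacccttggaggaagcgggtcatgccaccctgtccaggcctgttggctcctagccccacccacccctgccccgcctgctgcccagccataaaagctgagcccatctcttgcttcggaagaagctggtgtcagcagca

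RefSeq windows were matched for 7 of the 9 members, and Sox9 and Aqp4 were not matched. A SOX core was found in the windows of Sox2, Ermn and Krt18, and 28.6% of all 32851 windows held one. TATAAA was found in that of Krt8, where matches on the opposite strands overlap across the annotated start (offsets -3 and -1). It was also found in that of Aqp3 (offset -29), against 13.6% of all windows. CCAAT was found in those of Sox2 and Ermn, against 37.4% of all windows. In the windows of Cbr2 and Aqp5 none of these letters was found. Krt18, with a SOX core, had a large difference between fractions and Ermn, also with one, a small difference. A relation between matches and differences was not tested.

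Of the 9 members, 6 were higher in the fraction titled GFP+ of vehicle pools and the same 6 genes were higher in undecanal pools: Sox9, Krt18, Krt8, Sox2, Aqp4 and Aqp5. None of the 9 was called lower. Of all probe sets, 8.82% were called higher and 5.12% lower in vehicle pools, and 8.83% higher and 4.36% lower in undecanal pools, by limma with Benjamini-Hochberg adjusted p under 0.05. The median difference of the members was 1.41 on the log2 scale in vehicle pools and 1.89 in undecanal pools, against -0.113 and -0.106 over all probe sets. Cbr2, Ermn and Aqp3 were also higher in the array titled GFP+ of each of the 8 pools but did not pass within either agent. That fit had no block, so it did not pair the fractions of a pool. With the pool as a fixed replicate block Aqp3 and Ermn passed in both agents and Cbr2 in neither. In that blocked fit 9.43% and 9.3% of all probe sets were called higher. With the pool as a random block Aqp3 passed in both agents and Ermn and Cbr2 in neither, against 9.77% and 9.81% of all probe sets. In bulk RNA, fewer cells of a type and less RNA per cell cannot be told apart. The p-values of the fit without a block measure the spread of arrays within groups. Those with the pool as a fixed block measure the spread of the differences within pools. Every array titled GFP+ lay above every array titled GFP- for 7 members in vehicle pools and 6 in undecanal pools, against 9.83% and 9.43% of all probe sets.

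**Figure D1:**
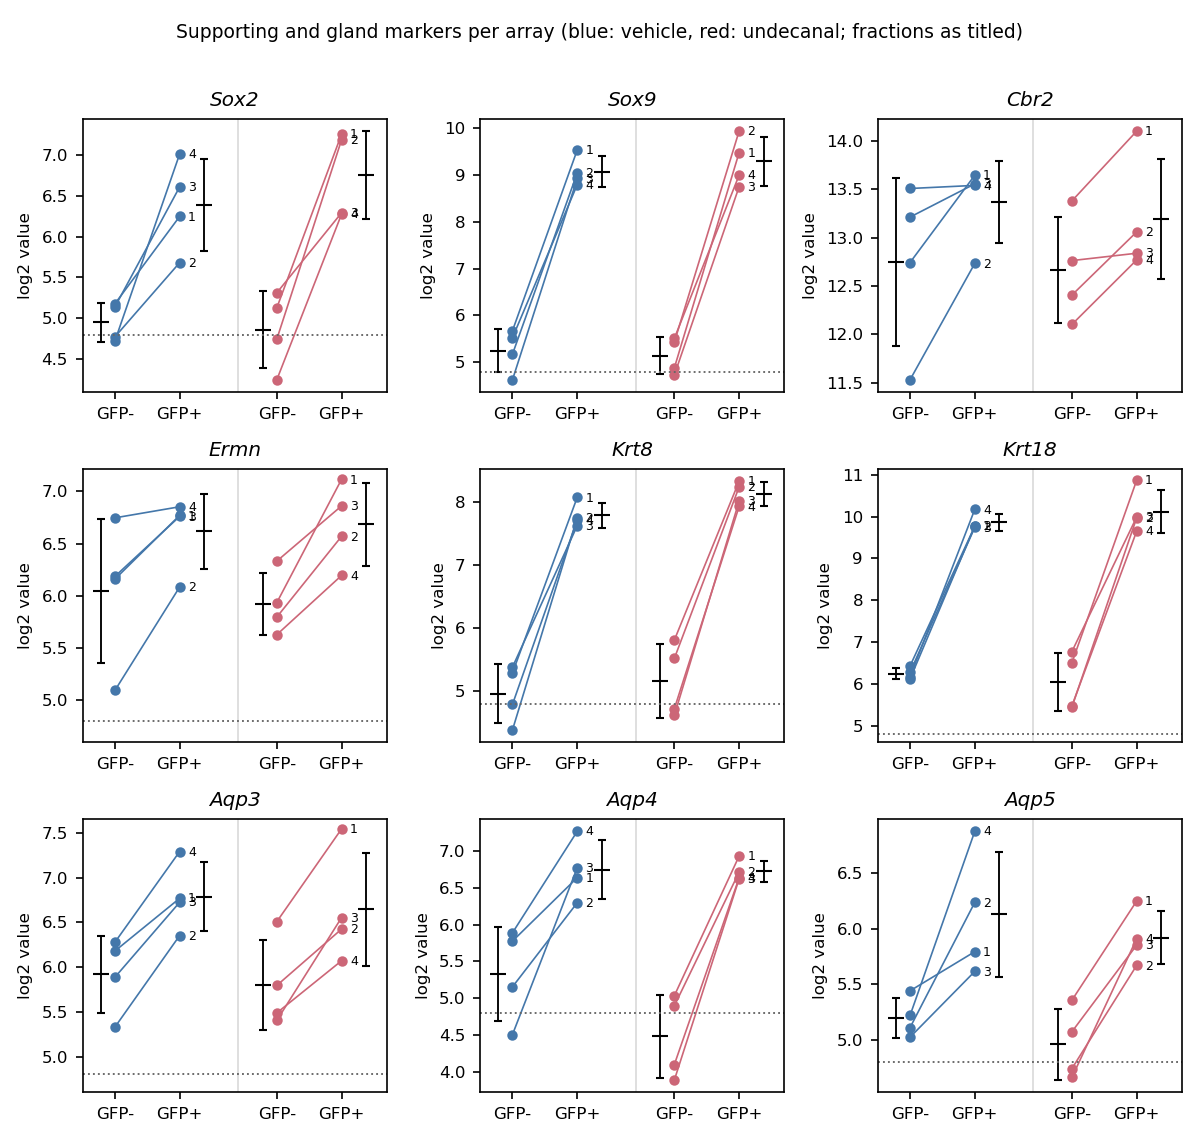
Log2 value of each member (vertical axis) in each of the 16 arrays. Lines join the fractions of a pool, numbers are pools within an agent, black bars are the mean and SD of 4 arrays, and the dotted line is the background level of 4.80 where it lies in range. Sox9, Krt8 and Krt18 rise steeply from the fraction titled GFP- to that titled GFP+, while the pools of Cbr2 and Ermn overlap between fractions.

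Sox9, a transcription factor of gland and duct cells, had the largest difference of the members in both agents. In vehicle arrays titled GFP- its log2 values were 5.675, 5.174, 4.627 and 5.525 in pools 1 to 4, and in those titled GFP+ they were 9.532, 9.042, 8.925 and 8.792. The groups were far apart, with every array titled GFP+ more than 3 log2 units above every array titled GFP-. The difference was 3.82 (SE 0.276, limma adjusted p = 1.08e-08), or 14.1-fold. In undecanal pools the values were 4.882, 5.433, 4.729 and 5.511 against 9.477, 9.935, 8.748 and 8.995, a difference of 4.15 (SE 0.276, limma adjusted p = 3.79e-09). The fraction titled GFP- lay close to background, with 3 of 4 arrays above it in each agent.

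Sox2, a transcription factor of supporting cells and basal progenitors, showed a smaller difference. Vehicle arrays titled GFP- held 5.178, 4.773, 5.14 and 4.723, and those titled GFP+ held 6.248, 5.682, 6.61 and 7.013. The groups did not overlap, and the difference was 1.43 (SE 0.297, limma adjusted p = 0.00221). With undecanal the values were 5.128, 4.744, 5.312 and 4.247 against 7.254, 7.185, 6.292 and 6.275, a difference of 1.89 (SE 0.297, limma adjusted p = 0.000147). In the fraction titled GFP-, 2 of 4 arrays of each agent lay above background. Their closest relatives did not pass. Of Sox1, Sox3, Sox8 and Sox10, 0 of 4 passed in limma in either agent, and Sox3 and Sox10 lay below background in all 4 groups. Sox8, a close relative of Sox9, differed by 0.34 in vehicle pools and 0.56 in undecanal pools without passing.

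Krt18, the acidic partner in the keratin pair, had the second largest difference. Its vehicle values were 6.426, 6.116, 6.275 and 6.166 in arrays titled GFP- and 9.768, 9.776, 9.742 and 10.173 in arrays titled GFP+. The difference of 3.62 (SE 0.285, limma adjusted p = 3.36e-08) was 12.3-fold. With undecanal the arrays titled GFP- held 6.504, 5.444, 6.771 and 5.472 and those titled GFP+ 10.868, 9.97, 9.989 and 9.651, a difference of 4.07 (SE 0.285, limma adjusted p = 7.39e-09). The SD in arrays titled GFP- was 0.137 (n = 4) with vehicle and 0.69 (n = 4) with undecanal, and the difference in spread was not tested.

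Krt8, the basic partner, moved in the same direction. It went from 5.29, 4.385, 5.382 and 4.79 to 8.077, 7.751, 7.627 and 7.718 in vehicle pools, a difference of 2.83 (SE 0.257, limma adjusted p = 2.04e-07). In undecanal pools it went from 5.811, 5.52, 4.617 and 4.721 to 8.333, 8.242, 8.016 and 7.932, a difference of 2.96 (SE 0.257, limma adjusted p = 1.19e-07). For Krt8, 2 of 4 arrays titled GFP- lay above background in each agent. Among the other keratins of simple epithelia, Krt7 was 1.48 higher and Krt23 1.27 higher in vehicle pools. These 2 of 4 passed, against 8.82% of all probe sets called higher, while Krt19 and Krt20 did not pass. Krt19, Krt20 and Krt23 lay below background in all 4 groups, and Krt7 in vehicle arrays titled GFP-. Of the keratins 5, 14 and 15 of basal cells none passed in limma, and each was below background in all groups.

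Of the 3 water channels Aqp4 and Aqp5 passed and Aqp3 did not. Aqp4, a water channel of many epithelial and glial cells, had vehicle values of 5.776, 5.155, 4.507 and 5.889 in arrays titled GFP- and 6.638, 6.297, 6.772 and 7.267 in arrays titled GFP+. These groups did not overlap and differed by 1.41 (SE 0.301, limma adjusted p = 0.00279). In undecanal pools it went from 5.035, 4.898, 3.89 and 4.1 to 6.931, 6.713, 6.622 and 6.635, a difference of 2.24 (SE 0.301, limma adjusted p = 2.51e-05). Its mean of 4.481 in undecanal arrays titled GFP- lay below background, unlike the other 35 of the 36 means of a member in a group, so the undecanal difference has no exact size.

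Aqp5, a water channel of gland acini, was also higher. Its vehicle values were 5.443, 5.113, 5.027 and 5.222 against 5.794, 6.236, 5.617 and 6.873, and its undecanal values 5.359, 4.746, 5.076 and 4.667 against 6.248, 5.671, 5.853 and 5.91. The groups did not overlap in either agent, and the differences were 0.93 (SE 0.234, limma adjusted p = 0.0104) with vehicle and 0.96 (SE 0.234, limma adjusted p = 0.00837) with undecanal. Among arrays titled GFP-, 4 of 4 with vehicle and 2 of 4 with undecanal lay above background. The vehicle call was lost without vehicle pool 2 (limma adjusted p = 0.0712) or vehicle pool 4 (0.0618), and the undecanal call without undecanal pool 4 (0.0562). With quantile normalization neither call held (limma adjusted p = 0.0818 and 0.0509).

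Aqp3, an aquaglyceroporin of basal and duct cells, went from 6.18, 5.33, 5.887 and 6.278 to 6.769, 6.353, 6.725 and 7.292 in vehicle pools. In undecanal pools it went from 6.508, 5.795, 5.404 and 5.488 to 7.544, 6.425, 6.553 and 6.071. Undecanal pool 1 was highest in both of its fractions, and its value titled GFP- exceeded 2 of the 4 undecanal values titled GFP+. The differences of 0.87 (SE 0.31, limma adjusted p = 0.0772) and 0.85 (SE 0.31, limma adjusted p = 0.087) did not pass. Within pools the differences ran from 0.58 to 1.15. With the pool as a fixed replicate block both passed (limma adjusted p = 0.00169 and 0.00194), where 9.43% and 9.3% of all probe sets were called higher. With the pool as a random block both passed too (0.0327 and 0.0375), against 9.77% and 9.81%. The vehicle difference also passed without undecanal pool 1 (limma adjusted p = 0.0163), in a fit where all groups share an estimate of the spread.

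Among the other aquaporins 2 of 8 were called higher in each agent, against 8.82% and 8.83% of all probe sets. Aqp1, a channel of red cells and small vessels, was 3.28 higher in vehicle pools and 2.57 higher in undecanal pools. Aqp9, a channel known from neutrophils, was 1.19 and 1.3 higher but below background in all groups. Aqp11 was well above background and did not pass, with differences of -0.34 and -0.46. The remaining 5 lay below background, and of these Aqp2 was called lower in undecanal pools (-0.53), against 4.36% of all probe sets.

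Cbr2, a carbonyl reductase of supporting cells, and Ermn, an actin-binding protein first known from myelin-forming glia, had the smallest differences between fractions. Cbr2 went from 12.742, 11.532, 13.211 and 13.506 to 13.643, 12.733, 13.554 and 13.538 in vehicle pools. In undecanal pools it went from 13.378, 12.406, 12.762 and 12.103 to 14.098, 13.058, 12.838 and 12.769. Vehicle pool 2 was lowest in both vehicle fractions and undecanal pool 1 highest in both undecanal fractions. The differences between fractions of 0.62 (95% interval -0.2 to 1.44, limma adjusted p = 0.342) and 0.53 (-0.29 to 1.35, limma adjusted p = 0.452) did not pass. For Krt18 and Sox9 the 95% intervals in vehicle pools were 3.02 to 4.22 and 3.24 to 4.4.

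Ermn also had overlapping groups. Its values were 6.16, 5.096, 6.186 and 6.746 against 6.77, 6.085, 6.76 and 6.852 in vehicle pools, and 5.935, 5.797, 6.332 and 5.629 against 7.114, 6.569, 6.86 and 6.195 in undecanal pools. Vehicle pool 2 was again lowest in both fractions. The differences were 0.57 (SE 0.291, limma adjusted p = 0.232) and 0.76 (SE 0.291, limma adjusted p = 0.105). Without vehicle pool 2 the undecanal difference passed (limma adjusted p = 0.023). With the pool as a fixed replicate block Ermn passed in both agents, at a limma adjusted p of 0.0415 for vehicle and 0.00974 for undecanal. Cbr2 passed in neither (0.0575 and 0.108). With the pool as a random block Ermn passed in neither agent (limma adjusted p = 0.143 and 0.0503), nor did Cbr2 (0.236 and 0.339).

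Averaging the fraction difference over both agents, a contrast added after the data were seen, used all 8 pools. Without a block 8 of the 9 members passed, against 12.0% of all probe sets called higher. With the pool as a fixed replicate block 9 of 9 passed, against 12.6%. In that blocked fit Cbr2 differed by 0.57 (SE 0.133, limma adjusted p = 0.00725) and Ermn by 0.67 (SE 0.116, limma adjusted p = 0.00102), each higher in 8 of 8 pools. Of all probe sets, 10.3% were higher in the fraction titled GFP+ of 8 of 8 pools. Without the block Ermn also passed (limma adjusted p = 0.0258) and Cbr2 did not (0.145).

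**Figure D2:**
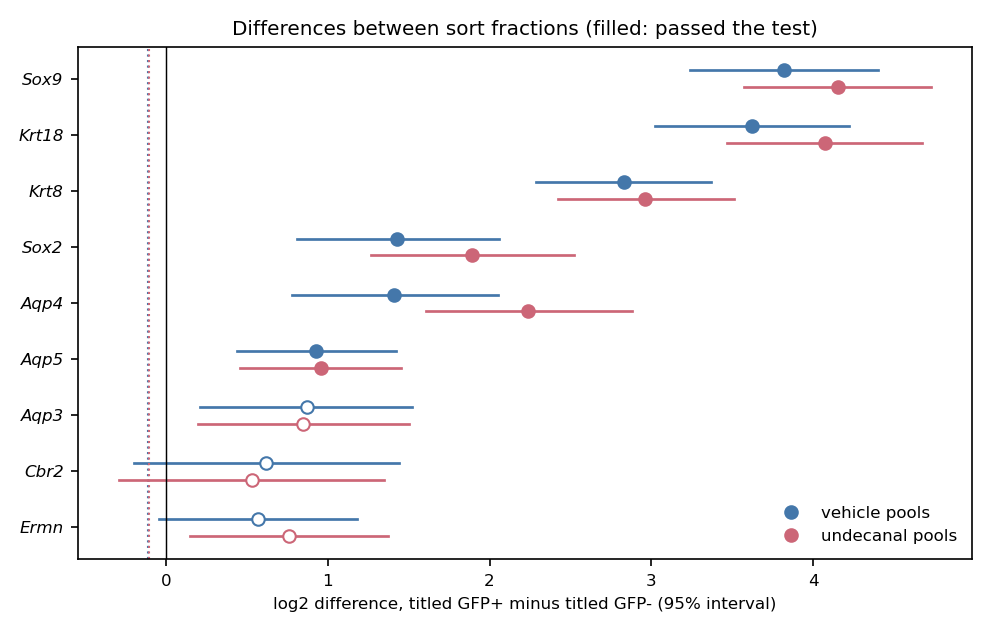
Log2 difference between sort fractions, titled GFP+ minus titled GFP- (horizontal axis), for each member in vehicle (blue) and undecanal (red) pools. Points are estimates from 4 pools, bars are 95% intervals of the limma fit, filled points passed at an adjusted p under 0.05, and the dotted lines, which nearly coincide, are the medians of all probe sets (-0.113 and -0.106). Sox9 and Krt18 lie near 4, and Cbr2 and Ermn under 1.

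Whether the fractions of a pool were high or low together was examined next. For each member the 8 values titled GFP+ were set against the 8 values titled GFP- of the same pools, 9 relations in all. Aqp3 had r = 0.884 (exact permutation p = 0.00255, adjusted over the 9 relations 0.023) and rho = 0.881 (exact permutation p = 0.00724, adjusted 0.0652). Without the 2 pools farthest from the median r was 0.809, and within agents it was 0.88 and 0.898. Cbr2 had r = 0.805 (exact permutation p = 0.0168, adjusted 0.0754) and rho = 0.714 (exact permutation p = 0.0576, adjusted 0.173), and Ermn had r = 0.76 (exact permutation p = 0.027, adjusted 0.0811) and rho = 0.714 (exact permutation p = 0.0576, adjusted 0.173). Neither passed after adjustment. Without the 2 farthest pools r was 0.827 for Cbr2 and 0.638 for Ermn, and within agents it was 0.889 and 0.871 for Cbr2 and 0.958 and 0.662 for Ermn. Across all probe sets the median r was 0.177 and the 95th percentile 0.768. Across the 14396 probe sets above background in at least 1 group these were 0.257 and 0.801, and r of Ermn lay below that percentile.

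For the other 6 members r ran from 0.0691 for Sox2 to 0.583 for Krt8, with adjusted exact permutation p from 0.291 to 0.871. Without the 2 farthest pools r was -0.076 for Sox9, -0.165 for Aqp4 and 0.671 for Aqp5. Within the 4 pools of an agent, too few for a test here, the values differed between agents. For Krt8 r was 0.221 in vehicle pools and 0.968 in undecanal pools, for Aqp4 0.39 and 0.835, and for Aqp5 0.0483 and 0.779. For Krt18 it was -0.402 and 0.562, for Sox9 0.471 and 0.411, and for Sox2 -0.0163 and 0.221.

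**Figure D3:**
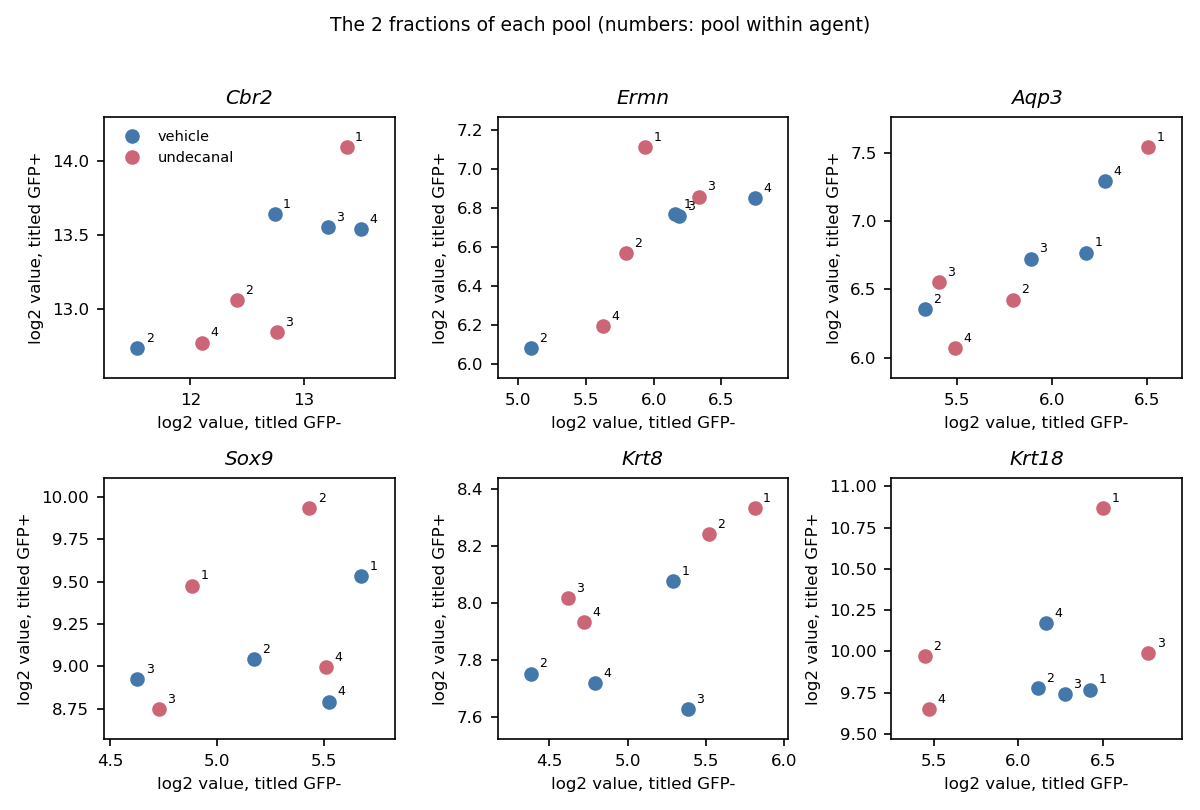
Log2 value in the fraction titled GFP+ (vertical axis) against that titled GFP- (horizontal axis) for the 8 pools, vehicle in blue and undecanal in red, numbered within agent. Over the 8 pools r was 0.805, 0.76 and 0.884 for Cbr2, Ermn and Aqp3 and 0.353, 0.583 and 0.365 for Sox9, Krt8 and Krt18, while the 4 undecanal pools of Krt8 lie close to a line (r = 0.968).

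Deviations of the 16 arrays from their group means were compared among members as a description; fractions of a pool share mice, so the arrays are not independent. Cbr2 and Ermn had r = 0.85, Cbr2 and Aqp3 r = 0.81, and Ermn and Aqp3 r = 0.65. Sox9 stood apart from these, with r of -0.0085 to Cbr2, -0.015 to Ermn and 0.099 to Aqp3. Krt8 and Krt18, which form filaments together, had r = 0.15 in their deviations although their raw values over 16 arrays gave r = 0.96, which the 2 fractions set. Krt18 deviated more like Sox2 (r = 0.70) and Aqp5 (r = 0.64).

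The genes most like Cbr2 by deviation, among 12966 genes above background in at least 1 group, were Sec14l3 (r = 0.931), Gstm1 (0.928) and Aldh2 (0.906). Those most like Ermn were Brca1 (0.905), Eef1d (0.905) and Cyp1a2 (0.883), and those most like Aqp3 were Cdk2ap1 (0.932), Tpd52 (0.916) and Tmed5 (0.913). For Sox9 they were Shkbp1, Mob3a and Foxn2, at 0.888, 0.888 and 0.862. For Krt18 they were Gnas, Tcof1 and Micu2 (0.838 to 0.826), for Krt8 Zfp930, Fgf12 and Olfr822 (0.868 to 0.846), and for Sox2 Ubr1, Epcam and Ranbp1 (0.862 to 0.854). Aqp4 was most like Ccdc158, 3300002I08Rik and Olfr1255 (0.913 to 0.892), and Aqp5 like Bicdl2, Galnt13 and Socs5 (0.858 to 0.847).

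The fraction contributes to likeness over raw values. By this measure Sox9 was most like the immediate early genes Fos (r = 0.993) and Egr2 (0.991) and like Zfp36l2 (0.99). Krt18 kept Gnas (0.993), with Rgs5 (0.989) and Clec12a (0.988). Krt8 kept the odorant receptor Olfr822 (0.99), with Olfr452 and Olfr448 (0.986 and 0.985). Sox2 was most like Svopl, Mgat4a and Ackr4 (0.948 to 0.947), Aqp4 like Olfr263, Olfr1250 and Cstdc4 (0.946 to 0.935), and Aqp5 like Prex1, Tmem184a and Slc26a7 (0.927 to 0.92). Cbr2 kept Sec14l3 (0.886) and Gstm1 (0.875) and added H4c8 (0.893). Ermn kept Brca1 (0.94) and Eef1d (0.909), again with H4c8 (0.895), and Aqp3 kept Cdk2ap1 (0.945) and Tpd52 (0.934), with Tpt1 (0.934).

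Other markers of sustentacular cells were read from a list of 12, of which 9 were measured. Like the lists that follow, it was chosen with earlier results of these data known, so its counts are a description. In each agent 5 of the 9 were called higher in the fraction titled GFP+, against 8.82% and 8.83% of all probe sets, and 0 were called lower. They were the cytochromes Cyp1a2 (2.72 in vehicle pools), Cyp2a5 (2.41) and Cyp2g1 (1.92), which oxidise inhaled compounds, the sulfotransferase Sult1c1 (2.52), and the receptor Notch2 (1.37). In undecanal pools the same genes differed by 2.15, 2.23, 1.79, 2.78 and 1.07. Notch2 lay below background in arrays titled GFP- of both agents, so its differences have no exact size. Sec14l3, a lipid transfer protein, differed by 0.18 and 0.17 without passing, and neither did Muc2 (-0.094 and -0.17), Gstm2 (0.54 and 0.74) or Hes1, which was below background. Cyp2g1 had a mean of 13.482 in undecanal arrays titled GFP- and 15.275 in those titled GFP+, and Sec14l3 had 10.902 and 11.076.

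By deviation from group means 7 of these 9 genes had r of 0.76 or more with Cbr2, a cut taken from the values themselves. Genes outside the list also reached such values, among them Gstm1 (0.928) and Aldh2 (0.906). The share of all genes with r this high is not given here, so the count has no background beside it. The values of r were 0.93 for Sec14l3, 0.90 for Cyp2g1, 0.89 for Sult1c1, 0.82 for Cyp2a5, 0.81 for Cyp1a2, 0.78 for Gstm2 and 0.76 for Muc2, against 0.16 for Notch2 and -0.049 for Hes1. The same 7 genes had r from -0.22 to 0.20 with Sox9. Both Cyp1a2, with a large fraction difference, and Sec14l3, with a small one, were thus among the genes that varied with Cbr2.

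On the gland side, 2 of 9 other Bowman gland markers were called higher in each agent, against 8.82% and 8.83% of all probe sets. Ltf, lactoferrin, which neutrophils also make, was 7.65 higher in vehicle pools and 8.01 higher in undecanal pools. Gpx6, a glutathione peroxidase of these glands, was 2.59 higher with vehicle (limma adjusted p = 2.46e-06) and 1.3 higher with undecanal (0.00387). Bpifb9b, a secreted lipid-binding protein, varied widely between arrays of a group, with SDs from 2.47 to 3.46 (n = 4) and a range of 5.033 to 12.783 in vehicle arrays titled GFP+. The 95% intervals of its fraction difference, -3.57 to 3.7 with vehicle and -3.52 to 3.76 with undecanal, are too wide to show a direction. The other 6, Sox10 and the mucus genes Muc5b, Muc5ac, Bpifb1, Pigr and Tff3, lay below background in all 4 groups. Of the gland list, 3 of 9 genes were thus above background, and Ltf only just in the arrays titled GFP- with vehicle (4.882). In those with undecanal Ltf lay below background (4.781), so its undecanal difference has no exact size.

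Genes related to the members by function gave a mixed picture. Of the membrane-cytoskeleton linkers, ezrin (Ezr, 2.97), radixin (Rdx, 3.26) and moesin (Msn, 0.86) were higher in vehicle pools and Nf2 (-0.25) and Slc9a3r1 (-0.036) did not pass. Of Cbr1, Cbr3, Cbr4, Dcxr and Dhrs4, which reduce carbonyls like Cbr2, Dcxr (0.61) and Dhrs4 (0.54) passed in vehicle pools and Dhrs4 (0.6) in undecanal pools. Among 10 epithelial adhesion and junction genes 4 were higher in vehicle pools and 5 in undecanal pools, against 8.82% and 8.83% of all probe sets. They included Cdh1, E-cadherin (4.5 and 4.4), and Tjp3 (1.01 and 0.69). The tight junction genes Cldn7 and Cldn4 were also higher, with means of 5.77 and 5.772 in vehicle arrays titled GFP+, and below background in arrays titled GFP-, so their differences have no exact size. In vehicle pools Tjp1 (-0.073), Cgn (-0.093) and Ocln (-0.044) did not pass.

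**Figure D4:**
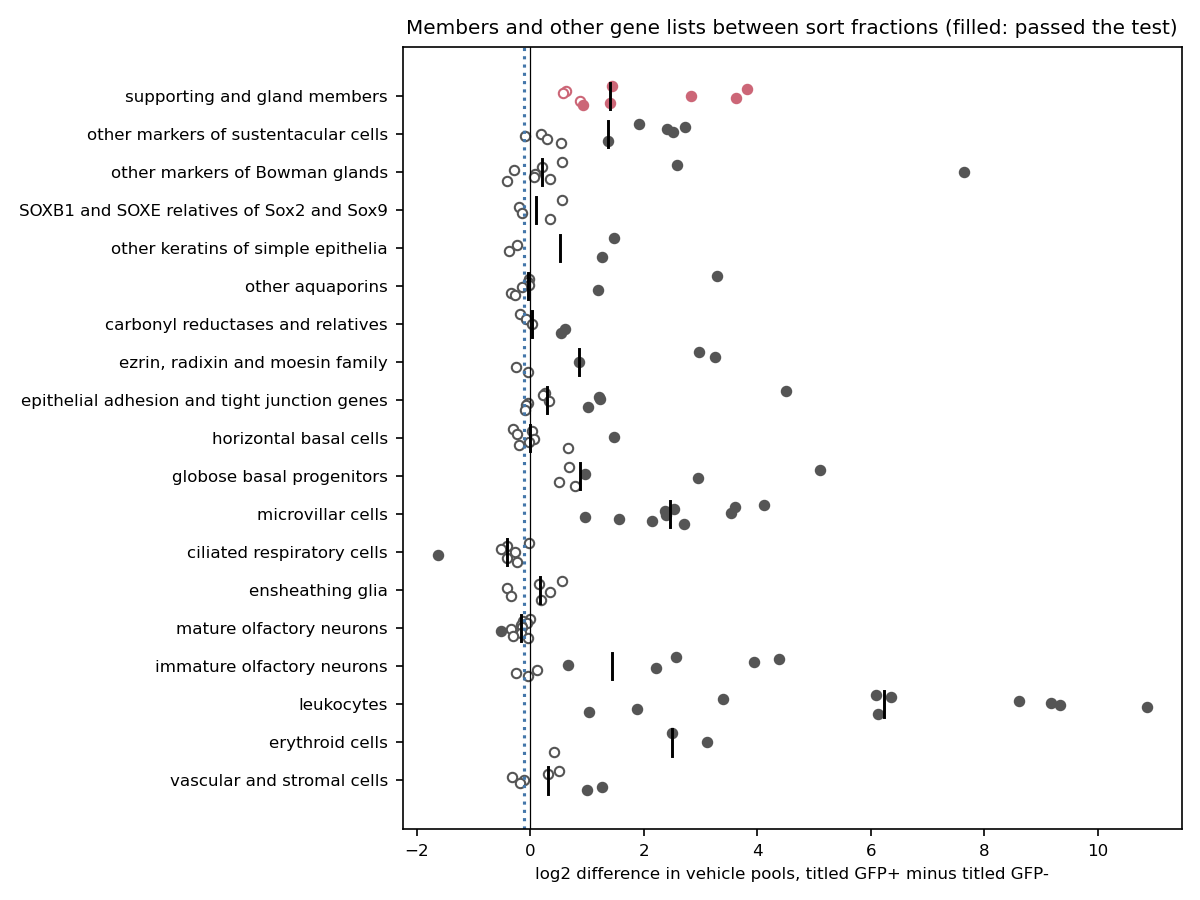
Log2 difference in vehicle pools, titled GFP+ minus titled GFP- (horizontal axis), of each measured gene of the 9 members (red) and of the other lists (grey). Filled points passed at an adjusted p under 0.05, black bars are list medians and the dotted line is the median of all probe sets (-0.113). The members have a median of 1.41, the leukocyte genes 6.24, the microvillar genes 2.46 and the mature neuron genes -0.159.

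Markers of other cells moved with the same fraction, and their part in the members' differences was not tested. The counts here and in the next paragraph stand beside 8.82% of all probe sets called higher in vehicle pools and 8.83% in undecanal pools. All 10 measured leukocyte genes were higher in each agent, and the log2 of their summed signal ran from 7.96 to 8.86 in vehicle arrays titled GFP- and from 17.35 to 18.04 in those titled GFP+. In undecanal arrays it ran from 7.98 to 8.63 and from 17.35 to 18.02. None of these 10 lay below background in arrays titled GFP+, against 4 with vehicle and 6 with undecanal in arrays titled GFP-. All 10 microvillar genes were higher too. Their sums ran from 11.07 to 11.56 and 13.14 to 14.41 in vehicle arrays and from 10.92 to 11.6 and 14.02 to 14.62 in undecanal arrays. A sum is weighted to the brightest probe sets of its list and is not a level of the list as a whole. Coch, among the microvillar genes, had vehicle means of 11.186 titled GFP- and 13.559 titled GFP+. Ngp, among the leukocyte genes, had a mean of 17.21 in vehicle arrays titled GFP+. Chat lay below background in all 4 groups, and Trpm5, Ascl3, Avil, Gnat3 and Il25 in the arrays titled GFP-. Erythroid genes were higher in 2 of 3 cases, with vehicle sums of 8.16 to 8.87 and 10.89 to 11.95, and Klf1 below background in all 4 groups. The sum of the other sustentacular genes ran from 12.93 to 14.57 and 15.5 to 16.49 in vehicle arrays, and from 13.79 to 14.77 and 15.76 to 16.73 in undecanal arrays.

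Basal cells and glia can also express Sox2, Sox9, Aqp3 or Aqp4, and their part in the members' differences was not tested either. Of the horizontal basal cell genes 7 of 8 lay below background in all 4 groups, among them Krt5, Krt14 and Trp63, and only Itga6 passed, in vehicle pools (1.48). Of the ensheathing glia genes 0 of 6 measured passed in limma in either agent, with Frzb, Gfap, Sox10 and Npy below background in all groups. Globose basal progenitor genes were above background in at least 1 group in 5 of 6 cases, and 3 of 6 were higher in vehicle pools and 4 of 6 in undecanal pools. Their summed signal ran from 9.16 to 9.66 in vehicle arrays titled GFP- and from 11.03 to 11.83 in those titled GFP+, and in undecanal arrays from 9.43 to 9.82 and from 10.57 to 11.94. Mki67, a gene of dividing cells, was 5.11 and 4.85 higher. Kit, a receptor of progenitors, was 2.95 and 2.68 higher, with its means titled GFP- below background. Immature neuron genes were higher in 5 of 8 and 4 of 8 cases, among them Gng8 (4.39 and 3.91) and Dpysl3 (3.94 and 3.76). Of the 8 differences 6 were positive in each agent and 0 were called lower. Ncam1 was among the others, with vehicle means of 16.513 titled GFP- and 16.256 titled GFP+. The summed signal overlapped between fractions, at 17.63 to 17.74 titled GFP- and 17.64 to 17.75 titled GFP+ in vehicle arrays. Vascular and stromal genes were higher in 2 of 7 cases in each agent, against 8.82% and 8.83% of all probe sets. These were Dcn (1.26) and Acta2 (0.99) in vehicle pools, and Dcn (1.03) and Pecam1 (0.82) in undecanal pools. Acta2 lay below background in all 4 groups, and Pecam1 in arrays titled GFP-. Of the ciliated cell genes Deup1 was lower (-1.63 and -1.2), and of the mature neuron genes Ano2 (-0.51 and -0.42).

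Undecanal against vehicle gave no call among the members in either fraction by limma, where 0.0045% of all probe sets passed in arrays titled GFP+ and 0.0% in arrays titled GFP-. In arrays titled GFP+ 0 of 9 members had an unadjusted p under 0.05, against 603 of 22206 probe sets, and differences ran from -0.21 (Aqp5) to 0.36 (Sox2). Krt8 differed by 0.34 (95% interval -0.21 to 0.88) and Cbr2 by -0.18 (-1.0 to 0.65). In arrays titled GFP- 1 of 9 had an unadjusted p under 0.05, against 914 probe sets. That member was Aqp4, with a difference of -0.85 (95% interval -1.48 to -0.22, unadjusted p = 0.0115 in the limma fit, limma adjusted p = 1). Its vehicle mean was 5.332 ± 0.637 (SD, n = 4) and its undecanal mean, below background, 4.481 ± 0.57 (SD, n = 4). The groups overlapped, as vehicle pool 3 at 4.507 lay below 2 undecanal arrays. The other 8 members differed by -0.24 to 0.21 there.

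The change of the fraction difference with undecanal also passed for 0 of 9 members in limma, with 0 of 9 at an unadjusted p under 0.05, where 0.0% of all probe sets passed and 584 had such a p. For Aqp4 it was 0.83 (95% interval -0.06 to 1.73, limma adjusted p = 1), a value without an exact size, since the undecanal mean titled GFP- lay below background. Krt18 changed by 0.45 (-0.4 to 1.3), Sox9 by 0.33 (-0.5 to 1.15) and Cbr2 by -0.09 (-1.25 to 1.07), none of them past the test. These intervals leave room for changes of more than 1 log2 unit, so the values do not show that the agents acted alike.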

How the data were processed

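RNA of 8 pools of 3 mice was measured in 2 sort fractions each, on 16 arrays. The authors deposited a log2 value per probe set. Per the submitters' processing notes, Affymetrix Expression Console was used. Its version, the summary method and the genome build were not given in the sources used here. They ran from 1.44 to 19.7. Of 28846 rows, 6640 control rows were left out. Symbols came from the platform annotation, and a gene with several probe sets (55 genes, no member) was read from the one of highest mean.

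Groups followed the titles. With limma 3.58.1 in R 4.3.3, lmFit and eBayes estimated the mean of each of the 4 groups from the 16 arrays, with no block. Benjamini-Hochberg adjustment ran over 22206 probe sets, with a threshold of 0.05. Exact permutation tests were run in Python 3.11.15, with the ranks for rho from SciPy 1.17.1. Since 24 mice at 3 per pool give 8 pools, arrays of an agent that share a number are taken to come from the same mice. The correlation of their deviations ranged between 0.0502 and 0.271 and exceeded 0.1 for 6 of the 8 pools. The same correlation for arrays of different numbers is not given here. The fit was first tested on simulated data.

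The members and lists were chosen with earlier results of these data known. Named genes were the members, S100a5 and Omp, up to 4 passing genes per list by size in vehicle pools or the 2 of smallest p, whole gene families, and the 3 genes most like each member by correlation; further genes of a list were named after their values were seen. Alternatives covered scaling, dim probe sets, samples fitted, prior variance, array weights, replicate blocks and left-out pools. No member had several probe sets, so averaging them was not needed.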

Additional observations from a re-analysis of the deposited data

Results flagged for a closer look

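Arrays of a group that stood apart from the other 3 were sought in 36 sets of 4 values, 9 members in 4 groups, and 3 were found; chance flags about 1 in 20 such sets. In vehicle arrays titled GFP+, pool 2 was lowest for Cbr2 at 12.733, with the next array at 13.538. The same array was lowest for Ermn at 6.085, with the next at 6.76. Pool 2 was also the lowest vehicle pool for both genes in the fraction titled GFP-. In vehicle arrays titled GFP+, pool 4 was highest for Krt18 at 10.173, with the next at 9.776.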

How the results depend on the processing

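Sox9, Krt18, Krt8, Sox2 and Aqp4 kept their direction and their call between fractions under all 17 alternatives in each agent. The lowest differences were 3.47 for Sox9, 3.26 for Krt18, 2.48 for Krt8, 1.08 for Sox2 and 1.06 for Aqp4, all in vehicle pools. The number of members called was 5 to 8 in each agent, against 6 in the main fit. With 1 pool left out 5 to 7 members were called in each agent. Of all probe sets, 8.82% and 8.83% were called higher in the main fit. That share was 9.43% and 9.3% with the fixed block and 9.77% and 9.81% with the random block. It is not given here for the other alternatives. Aqp5 lost its call in 3 of 17 alternatives in vehicle pools and 2 of 17 in undecanal pools: with quantile normalization (0.63 and 0.71), without vehicle pool 2 (0.86) or 4 (0.69), and without undecanal pool 4 (0.86). The cause was not tested. Aqp3 gained a call in vehicle pools with arrays centred on mature neuron genes (1.05), in a fit of only the groups compared, with either replicate block and without undecanal pool 1 (0.87 in each), and in undecanal pools with that centring (1.03) and either replicate block (0.85). Ermn gained one with the fixed replicate block (0.57 in vehicle and 0.76 in undecanal pools), and in undecanal pools also with that centring (0.94), in a fit of only the groups compared and without vehicle pool 2 (0.76 in each). Averaged over agents, Cbr2 passed with the replicate block (0.57, limma adjusted p = 0.00725) and not without it (0.145). The replicate block changed no other call of a member. Undecanal against vehicle and the interaction called 0 members under each alternative; a fit of only the groups compared could not be made for the interaction, nor the fixed block for undecanal against vehicle. Median centring moved the median of all probe sets between fractions from -0.113 to -0.469 in vehicle pools, and no member changed sign there. With the background at the 99th percentile, 26 of the 36 member means lay above it, against 35, and levels near background bound the measured size of the differences.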
